A study of Mus musculus with 6 samples.

Results

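Hormone-sensing luminal cells are the epithelial cells of the mammary gland that read ovarian hormones. The genes described here were chosen by name as markers of these cells: the receptors Esr1 and Pgr, the transcription factor Foxa1, the hormone-responsive genes Greb1 and Cited1, the secreted signals Wnt4 and Tnfsf11, and the surface proteins Prom1 and Ly6a. Every probe set that the array annotation gives to a single one of these symbols was used. That found 17 probe sets for 8 of the 9 symbols, out of 45037 probe sets and 18193 genes. No probe set was annotated to Ly6a alone, so it was not analysed here.

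RNA came from whole mammary glands of 3 Elf5 knockout (KO) mice and 3 wild-type (WT) mice, with 1 one-colour Affymetrix array per animal. Elf5 is an ETS-family transcription factor that luminal progenitors need to become milk-secreting cells. The sample labels place all glands at day 17 of pregnancy and the series' design text at day 1 of lactation, so the stage is not settled here. The sources used here give neither the KO allele, nor a promoter driving any Cre, nor strain or age. All 6 glands are untreated as far as the labels say.

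In the adult gland, oestrogen and progesterone act on these cells through the receptors encoded by Esr1 and Pgr, with FOXA1 opening chromatin at sites where the oestrogen receptor binds. The hormone-sensing cells then signal to their neighbours: progesterone induces RANKL, the product of Tnfsf11, and WNT4, which act on cells that largely lack the hormone receptors. Prom1 encodes prominin-1, a membrane protein used to sort hormone-sensing luminal cells in the mouse. Elf5 works in the other luminal branch, the secretory alveolar one.

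The probe sets of Foxa1 and Prom1 stood furthest apart between the genotypes, so the 250 bases before their start sites are printed here. They come from RefSeq (GRCm38.p6), read 5′ to 3′ on the gene's strand, and capitals mark matches to an ETS core (AGGAAG) or a forkhead core (TGTTTNC) on either strand. Foxa1 lies on the minus strand at chr12:57546112-57546361, and Prom1 has start sites on the minus strand at chr5:44101737-44101986 (start 1) and chr5:44094769-44095018 (start 2).
Foxa1: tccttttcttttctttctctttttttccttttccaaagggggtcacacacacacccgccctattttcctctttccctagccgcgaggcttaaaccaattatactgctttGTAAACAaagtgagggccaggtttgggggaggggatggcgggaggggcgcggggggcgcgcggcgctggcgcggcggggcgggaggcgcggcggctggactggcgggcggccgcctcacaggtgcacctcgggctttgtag
Prom1 start 1: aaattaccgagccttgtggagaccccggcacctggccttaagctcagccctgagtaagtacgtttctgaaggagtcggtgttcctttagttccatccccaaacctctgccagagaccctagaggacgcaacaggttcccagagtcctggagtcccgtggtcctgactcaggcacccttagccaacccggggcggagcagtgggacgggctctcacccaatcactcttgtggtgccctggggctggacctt
Prom1 start 2: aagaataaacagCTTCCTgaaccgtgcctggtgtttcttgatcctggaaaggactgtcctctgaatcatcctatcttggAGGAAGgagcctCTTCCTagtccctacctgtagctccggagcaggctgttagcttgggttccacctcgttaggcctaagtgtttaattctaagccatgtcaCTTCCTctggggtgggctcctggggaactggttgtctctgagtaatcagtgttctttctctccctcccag
The Foxa1 window held 1 forkhead match and 0 ETS matches. Prom1 start 1 held neither, and Prom1 start 2 held 4 ETS matches and 0 forkhead matches. Windows of the same length held an ETS match at 29.5% and a forkhead match at 17.8% of 32851 start sites in the table. The palindromic oestrogen response element GGTCANNNTGACC was found in 0 of 13 windows of the 8 measured genes, and in 0.0639% of all windows. These matches describe letters in a short window and say nothing about binding.

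Signals are linear intensities on the authors' scale, in which each array has the same trimmed mean. Differences are KO minus WT on log2(signal + 16), with limma's moderated standard error (SE), and adjusted p-values are Benjamini-Hochberg values over 27024 probe sets. Nothing in the labels says more of the animals than that they are biological replicates. Probe sets with a mean over the 6 arrays under 23.4, the lowest 40% of the table, were not tested. By this limit 9 of the 17 were tested, from 7 genes, and 8 were not. Levels of different probe sets cannot be ranked against each other on these arrays.

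The arrays differed in RNA quality, and this touches several of the genes below. Gapdh control probe sets read both ends of the transcript, and the 3′ signal over the 5′ signal, which grows as RNA degrades, was 0.802, 3.89 and 13.6 in KO arrays 1, 2 and 3, against 0.833 to 1.09 in the WT arrays. The same ratio for Actb was 1.58, 1.87 and 21 in KO arrays 1, 2 and 3, against 1.2 to 2.04 in the WT arrays. By Actb only KO array 3 stood apart, whereas by Gapdh KO array 2 did too. Values from the 4 arrays with a Gapdh ratio under 2 (KO array 1 and the 3 WT arrays) are therefore given as well, and these rest on a single KO gland, with the spread taken from the WT arrays alone. Elf5 itself read 5616, 4361 and 3128 in KO arrays 1, 2 and 3, against 12011, 8044 and 7244 in WT (difference -1.06 ± 0.31 SE, limma adjusted p = 0.174). Its KO and WT ranges did not overlap. A second probe set differed by -1.83 ± 0.61 (SE, limma adjusted p = 0.206). On both, the KO signals were lower at higher Gapdh ratios, and the 4 arrays of low ratio gave -0.66 and -0.82. Whether either probe set reads the altered stretch of Elf5 was not examined.

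Over all probe sets, limma called 0 of 27024 higher (0%) and 0 lower (0%), with 4796 at an unadjusted p under 0.05. None of the 9 tested probe sets of these genes passed either, with 4 at an unadjusted p under 0.05. When each gene was tested by its brightest probe set alone, limma called 111 of 10917 genes higher (1.02%) and 8 lower (0.0733%). Of the 7 genes tested that way Foxa1 and Prom1 passed, both with higher KO signal. That fit has a filter of its own, at a signal of 47.8, and the WT means of both genes lay under it. Both therefore reached that test through their KO signals, and their passing is given as a description, not as support for a shift of these genes. KO and WT signals did not overlap for 2 of the 9 tested probe sets with KO above WT and for 1 with KO below. Among all probe sets tested, 11.9% lay wholly above WT in the KO and 12.7% wholly below. With 9 probe sets these counts cannot be set apart from that background. The tested probe sets of these genes had a higher KO mean in 7 of 9 cases (median difference 0.94), against 44.6% of all probe sets tested (median -0.09). Prom1 reached the test only through its KO signals. Without it, 6 of 8 had a higher KO mean (median 0.82), and KO and WT signals did not overlap for 1 above and 1 below. Over all probe sets of these genes, tested or not, 8 had a higher mean KO signal and 9 a lower one. The genes were chosen with earlier results of these data known, so these counts are a description.

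**Figure D1:**
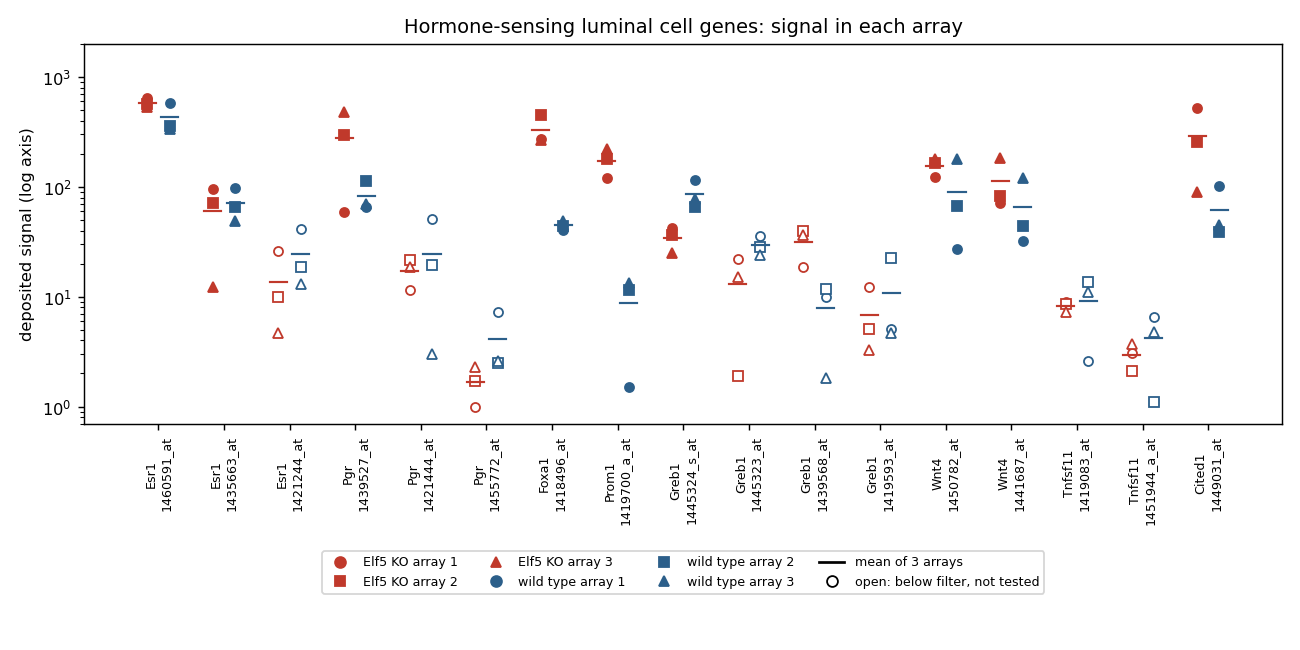
Deposited signal (log axis) of each of the 17 probe sets in each KO array (red, left of each pair) and each WT array (blue, right). Horizontal lines are means of 3 arrays, and open symbols are probe sets under the filter. Foxa1 and Prom1 have all 3 KO points above all 3 WT points, and the Greb1 probe set 1445324_s_at has them below.

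Foxa1, a forkhead pioneer factor for the oestrogen receptor, read 272.1, 448.8 and 266.8 in KO arrays 1, 2 and 3, against 40.9, 44.2 and 48.4 in WT. The WT arrays lay close together and every KO array was brighter than all of them. Means were 329 ± 104 in the KO and 44.5 ± 3.8 in WT (SD, n = 3 each), so the KO mean was 7.40 times the WT mean. The difference was 2.47 ± 0.32 (SE, limma adjusted p = 0.0917). With 1 probe set per gene the same difference passed (limma adjusted p = 0.0282), within the limit on that filter given above. With the 4 arrays of low ratio it was 2.25. Among the KO arrays Foxa1 was brightest in KO array 2, while KO arrays 1 and 3, with the lowest and highest Gapdh ratios, read lower. The part of RNA quality in this was not tested.

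Prom1 read 120.8, 178.5 and 220.6 in KO arrays 1, 2 and 3, against 1.5, 11.4 and 13.3 in WT. All WT signals lay under the 23.4 limit, so this probe set reached the test through its KO signals. It was the only tested probe set of these genes of which that was true. Means were 173 ± 50 in the KO and 8.7 ± 6.3 in WT (SD, n = 3 each). The difference was 2.94 ± 0.35 (SE, limma adjusted p = 0.0917), and with 1 probe set per gene it passed (limma adjusted p = 0.0282). At this dim WT level the size of the difference depends on the constant added before the logarithm, and it was 4.47 with 1 in place of 16. The Prom1 KO signals had the same order as the Gapdh ratios, and the 4 arrays of low ratio gave 2.50. The part of RNA quality was not tested.

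Differences between arrays of the same replicate number were alike for these genes. Numbers 1, 2 and 3 gave 2.34, 2.95 and 2.13 for Foxa1, and 2.97, 2.83 and 3.01 for Prom1. Leaving out single arrays changed the calls made with 1 probe set per gene. For Foxa1 the limma adjusted p was 0.102 without KO array 2, 0.0551 without KO array 3, and 0.0732, 0.173 and 0.145 without WT arrays 1, 2 and 3. For Prom1 it was 0.102 without KO array 2, 0.0580 without KO array 3, and 0.0498, 0.164 and 0.145 without WT arrays 1, 2 and 3. Prom1 thus passed without WT array 1, and Foxa1 did not. Without KO array 1 both passed, at a limma adjusted p of 0.0104. In that setting 1214 of 10917 genes passed, and the KO arrays left had Gapdh ratios of 3.89 and 13.6. Over all 26 alternative settings the differences were 2.18 to 2.82 for Foxa1 and 2.32 to 4.47 for Prom1.

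Cited1, a transcriptional co-regulator of the oestrogen receptor in the mammary gland, read 517.4, 257 and 88.9 in KO arrays 1, 2 and 3, against 101.2, 38.5 and 44.8 in WT. The groups overlapped, since KO array 3 lay below WT array 1. Means were 288 ± 216 in the KO and 61.5 ± 34.5 in WT (SD, n = 3 each), and the difference was 1.77 ± 0.58 (SE, limma adjusted p = 0.203). Among the KO arrays Cited1 was brightest at the lowest Gapdh ratio and dimmest at the highest. The 4 arrays of low ratio gave a difference of 2.87. The part of RNA quality in this was not tested. With the replicate number as a block and 1 probe set per gene, Cited1 passed (limma adjusted p = 0.0228). In that setting, chosen after seeing the data, 1310 of 10917 genes passed.

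**Figure D2:**
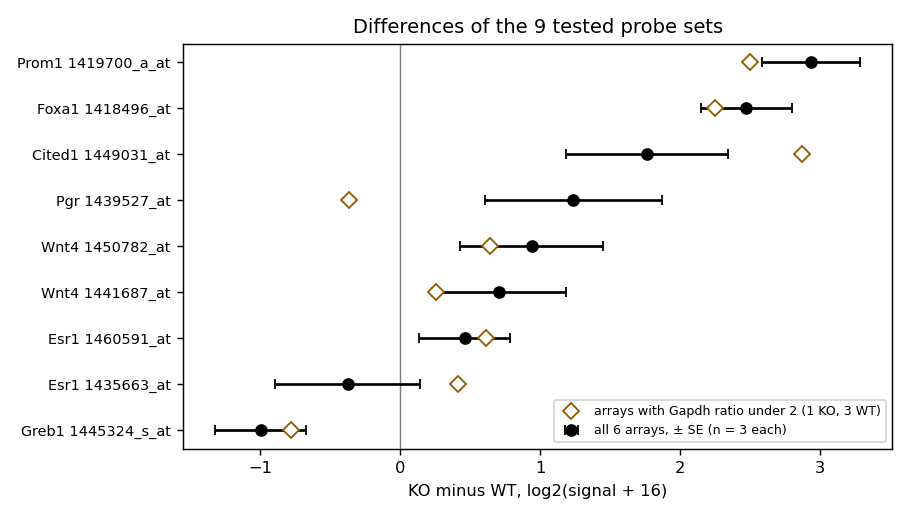
KO minus WT difference on log2(signal + 16) for the 9 tested probe sets, with all 6 arrays (filled, ± SE, n = 3 each) and with the 4 arrays whose Gapdh ratio was under 2 (open diamonds). Prom1, Foxa1 and Cited1 have the highest values in both, while Pgr is 1.24 with all arrays and -0.36 with the 4, and Esr1 1435663_at changes sign.

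The receptors gave no such separation. Esr1, the oestrogen receptor alpha gene, read 644.2, 569.5 and 530.1 in KO arrays 1, 2 and 3 on its brightest probe set, 1460591_at, against 585.7, 361.4 and 338.6 in WT. WT array 1 lay inside the KO range, and the difference was 0.46 ± 0.33 (SE, limma adjusted p = 0.445). The KO signals were lower at higher Gapdh ratios, and the 4 arrays of low ratio gave 0.61. A dimmer Esr1 probe set, 1435663_at, read 96.6, 70.8 and 12.2 in the KO, against 98, 65.5 and 48.5 in WT. Its low value was in KO array 3, the one with the highest Gapdh ratio, and the difference was -0.37 ± 0.52 with all arrays (SE, limma adjusted p = 0.699) but 0.42 in the 4 arrays of low ratio. The tested Esr1 probe sets thus differed in sign, and KO and WT signals overlapped on both. The third, 1421244_at, was not tested and read 4.7 to 26.3 in the KO and 13 to 41.6 in WT.

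Pgr, the progesterone receptor gene, read 58.9, 298 and 482.2 in KO arrays 1, 2 and 3 on probe set 1439527_at, against 65, 112.7 and 69.6 in WT. KO array 1 lay below every WT array and KO arrays 2 and 3 above them. The difference was 1.24 ± 0.63 (SE, limma adjusted p = 0.327). The KO signals followed the order of the Gapdh ratios, and the 4 arrays of low ratio gave a difference of -0.36. Without KO array 1 the difference was 2.04 and passed (limma adjusted p = 0.0454), as did 720 of 27024 probe sets. Genotype and RNA quality were not separable in the KO arrays that remained. The part of RNA quality was otherwise not tested. Both other Pgr probe sets were under the filter and read 1 to 21.6 in the KO and 2.5 to 51.1 in WT. On the dimmer one, 1455772_at, all KO signals (1, 1.7 and 2.3) lay below those of WT (7.3, 2.5 and 2.6).

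**Figure D3:**
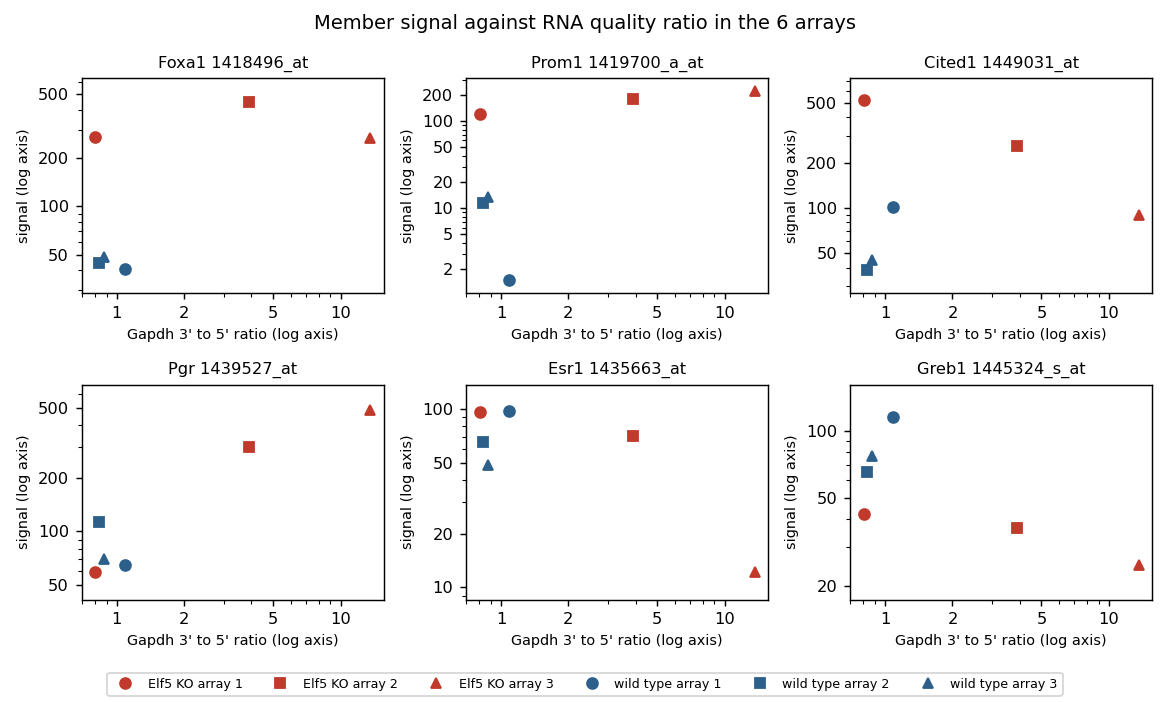
Signal (log axis) of 6 tested probe sets against the 3′ to 5′ Gapdh ratio (log axis) in the KO (red) and WT (blue) arrays, 1 point per array. Foxa1 reads 266.8 to 448.8 across the KO arrays and is highest in KO array 2. Prom1 and Pgr are highest at the highest ratio (220.6 and 482.2). Cited1, Esr1 1435663_at and Greb1 1445324_s_at are lowest there among KO arrays (88.9, 12.2 and 24.9).

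Greb1, a co-regulator induced by oestrogen, had 4 probe sets that did not move as a unit. The brightest, 1445324_s_at, read 42.1, 36.5 and 24.9 in KO arrays 1, 2 and 3, against 114.9, 65 and 76.9 in WT. All KO signals lay below all WT signals, with a difference of -0.99 ± 0.32 (SE, limma adjusted p = 0.201) and -0.78 in the 4 arrays of low ratio. The KO signals of this probe set were lower at higher Gapdh ratios. The other three were under the filter. Probe set 1439568_at read 18.7, 39.5 and 36.1 in the KO, against 10, 11.7 and 1.8 in WT, the opposite order to the brightest. Probe set 1445323_at read 22.1, 1.9 and 15 in the KO, against 35.8, 28.4 and 24 in WT, and 1419593_at read 3.3 to 12.2 and 4.7 to 22.6 with overlap. Which Greb1 transcripts these probe sets detect was not examined here.

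Of the secreted signals, Wnt4 had a pair of tested probe sets that agreed in sign. Probe set 1450782_at read 122.3, 165.8 and 179.1 in KO arrays 1, 2 and 3, against 27.4, 66.3 and 178.3 in WT. WT array 3 was nearly as bright as the brightest KO array, and the difference was 0.94 ± 0.51 (SE, limma adjusted p = 0.347). Probe set 1441687_at read 71.8, 82.4 and 182.9 in the KO, against 32.2, 44 and 120.8 in WT, with a difference of 0.71 ± 0.48 (SE, limma adjusted p = 0.432). In both, array 3 was the brightest of its genotype, and the KO signals had the order of the Gapdh ratios. The 4 arrays of low ratio gave 0.64 and 0.26.

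Tnfsf11, the RANKL gene and a target of progesterone, was dim in both genotypes and was not tested. Its probe sets read 8.9, 8.5 and 7.3, and 3.1, 2.1 and 3.7, in KO arrays 1, 2 and 3. In WT they read 2.6, 13.7 and 11, and 6.6, 1.1 and 4.8. KO and WT overlapped on both, and all signals lay under the 23.4 limit, which is a filter and not a limit of detection. Detection calls were not used here, so these signals do not say whether the transcript was present.

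A gene can read higher in a whole gland because more cells express it or because each cell makes more of it, and bulk RNA cannot tell these apart. The summed signal of 5 general luminal markers (Krt8, Krt18, Krt19, Epcam and Cdh1) was 12282.3 to 20266.2 in the KO and 11630 to 16343.8 in WT, with 3 higher and 2 lower KO means and a median difference of 0.27. After each array was centred on these markers, the differences were 2.18 for Foxa1, 2.64 for Prom1, 1.47 for Cited1 and -1.29 for Greb1 1445324_s_at. Alveolar secretory markers summed to 43980.7 to 77729.3 in the KO and 56514.7 to 171287.5 in WT, and all 6 had a lower KO mean. Progenitor markers summed to 8258.9 to 11968.9 in the KO and 13264.4 to 15703.7 in WT. Of these 6, which include Elf5 itself, 3 had a lower KO mean (Elf5, Cd14 and Itga2). Without Elf5 the sums overlapped, at 3230.5 to 7608 in the KO and 3692.9 to 8334.1 in WT. Kit read 423.3, 2362.5 and 1242.9 in KO arrays 1, 2 and 3, against 51.6, 385.4 and 764.3 in WT. Aldh1a3 read 141.8, 668.3 and 412.8 in the KO, against 46.9, 107.9 and 172.1 in WT, both genes with overlap. Their differences were 1.99 and 1.66 with all arrays, and 0.67 and 0.47 in the 4 arrays of low ratio. A second Kit probe set differed by 0.23 ± 0.78 (SE). Cd14 went the other way, at 2059.7, 2875 and 2108.1 in the KO, against 2894.9, 3688.8 and 6214.2 in WT. Its groups did not overlap, and the difference was -0.80 ± 0.33 (SE, limma adjusted p = 0.266).

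Markers of the other cell types of the gland differed to unlike degrees. Limma called none of them with every probe set, and with 1 probe set per gene it called 1, the fibroblast marker Dpt (1.81 ± 0.34 SE, limma adjusted p = 0.0482), named after its values were seen. The 6 fibroblast markers summed to 19420.7 to 30694.5 in the KO and 10845.5 to 16969.8 in WT, with 6 of 6 higher KO means. Leukocyte markers summed to 3231.9 to 6400.1 in the KO and 1600.9 to 2791.5 in WT, also with 6 of 6 higher. All 4 adipocyte markers with a probe set were higher, at 18400.9 to 27111.8 in the KO and 15551 to 18795 in WT. Endothelial sums were 1186.6 to 1519.6 in the KO and 1031.8 to 1211.2 in WT (4 of 6 higher), and basal sums 9447.7 to 14051.9 in the KO and 12367.1 to 15919.1 in WT (3 of 6 higher). No marker in these lists read 0 in any array, and the part of these cells in the member signals was not tested.

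Other genes of the hormone pathway were read from lists of receptor partners, hormone-responsive genes and the receptors that answer the secreted signals, each gene by its brightest probe set. None passed with every probe set tested or with 1 probe set per gene (limma, 0 in each list). Among all genes so measured, 51.4% had a higher KO mean and the median difference was 0.02. Of 9 tested receptor partners, 5 had a higher KO mean (median 0.20), and 0 had an unadjusted p under 0.05. The smallest p was that of Tbx3, which encodes a T-box transcription factor. Tbx3 read 56.6, 105 and 164.9 in KO arrays 1, 2 and 3, against 51.2, 71.7 and 43.4 in WT (0.73 ± 0.39 SE, limma adjusted p = 0.344). Its KO signals had the same order as the Gapdh ratios, and the 4 arrays of low ratio gave 0.04. Gata3, which acts with FOXA1 at oestrogen receptor sites, differed by -0.10 ± 0.44 (SE).

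Of 9 tested hormone-responsive genes, 5 had a higher KO mean (median 0.64), and 6 had an unadjusted p under 0.05. Among all 27024 probe sets tested, 4796 had such a p in limma. KO and WT signals did not overlap for 11.9% of them with KO above and 12.7% with KO below. The list was chosen with earlier results of these data known, so its counts are a description. Myb, a transcription factor gene induced by oestrogen in breast cells, had the smallest p. It read 43.8, 114.4 and 170.1 in KO arrays 1, 2 and 3, against 18.2, 5.7 and 6.7 in WT (2.14 ± 0.45 SE, limma adjusted p = 0.129). All its WT signals lay under the 23.4 limit, so Myb reached the test through its KO signals. The KO and WT ranges did not overlap, and the KO signals had the same order as the Gapdh ratios. The 4 arrays of low ratio gave 1.22. The probe set's name marks possible cross-hybridisation. Cxcl12, a chemokine gene that oestrogen induces in breast cells, was named after its values were seen. It read 1342.4, 1541.9 and 1042.7 in the KO, against 619.1, 484 and 478.5 in WT (1.28 ± 0.30 SE, limma adjusted p = 0.144). Its groups did not overlap, and the 4 arrays of low ratio gave 1.33. Fibroblasts also express Cxcl12, and all fibroblast markers had a higher KO mean, several of them with overlap between the groups. The part of fibroblasts in the Cxcl12 difference was not tested. Stc2 and Xbp1 had lower KO signals without overlap, at -1.17 ± 0.32 and -0.81 ± 0.25 (SE), and Id4 and Ccnd1 higher ones, at 1.34 ± 0.38 and 0.85 ± 0.33. Differences in the 4 arrays of low ratio were -0.78 for Stc2, -0.53 for Xbp1, 0.79 for Id4 and 0.26 for Ccnd1. The Ccnd1 KO signals had the order of the Gapdh ratios, and those of Stc2 and Xbp1 were lower at higher ratios. Stc2, Xbp1, Id4 and Ccnd1 were also named after their values were seen. Areg, Prlr and Calca, 3 further genes of the list, had no probe set annotated to them alone and were not analysed here.

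Of 12 tested receptors and responders of the secreted signals, 8 had a higher KO mean (median 0.27), and 5 had an unadjusted p under 0.05. The background is that given for the hormone-responsive genes, and this list too was chosen with earlier results known. Egfr, the receptor that amphiregulin from hormone-sensing cells binds, had the smallest p and read 462.7, 605.6 and 1061.5 in KO arrays 1, 2 and 3, against 222, 145.2 and 226.8 in WT (1.70 ± 0.38 SE, limma adjusted p = 0.142). The groups did not overlap, the KO signals had the order of the Gapdh ratios, and the 4 arrays of low ratio gave 1.19. Tnfrsf11a, which encodes RANK, the receptor of the Tnfsf11 product, was named after its values were seen. It read 119.7, 37 and 15.9 in the KO, against 282.4, 267.1 and 210.9 in WT (-2.13 ± 0.50 SE, limma adjusted p = 0.144). All KO signals lay below all WT signals, and they were lower at higher Gapdh ratios. The 4 arrays of low ratio gave -0.98. Lgr4, a receptor for R-spondin that strengthens WNT signals, was named in the same way. It read 586.5, 1163.3 and 913.2 in the KO, against 2105.4, 2508.7 and 1924 in WT (-1.33 ± 0.33 SE, limma adjusted p = 0.149). Its groups did not overlap either, and the 4 arrays of low ratio gave -1.86. The WNT receptor gene Fzd7 and the WNT effector gene Lef1, likewise named after their values were seen, had KO signals above all WT signals, at 1.44 ± 0.35 and 1.24 ± 0.41 (SE). Fzd7 differed by 0.84 and Lef1 by 0.65 in the 4 arrays of low ratio. The Lef1 KO signals had the order of the Gapdh ratios, and its WT mean of 22.9 lay under the filter limit.

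**Figure D4:**
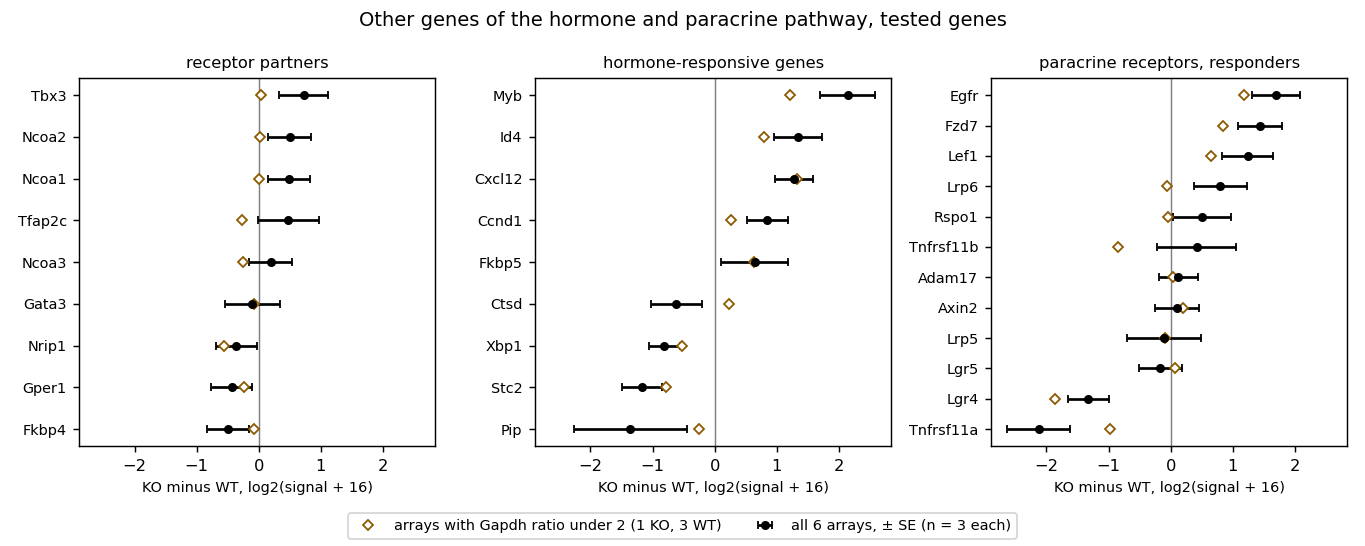
KO minus WT difference on log2(signal + 16) for the tested genes of the 3 pathway lists, with all 6 arrays (filled, ± SE, n = 3 each) and with the 4 arrays whose Gapdh ratio was under 2 (open diamonds). Myb (2.14) and Egfr (1.70) are the highest of their lists and Tnfrsf11a (-2.13) the lowest.

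The genes whose signals followed each member most closely over the 6 arrays were found by Pearson correlation of log2(signal + 16), given as a description. All of these share the same 6 arrays, with the genotypes pooled. For Prom1 they were Tph1, the enzyme that starts serotonin synthesis outside the brain (r = 0.996), Dixdc1 (r = 0.995) and Tm7sf3 (r = 0.995). For Foxa1 they were Fam189b (r = 0.998), Adgra2 (r = 0.994) and Hcar2 (r = 0.994). Tph1 read 347.3, 522.3 and 560.7 in KO arrays 1, 2 and 3, against 36.3, 84.8 and 74.9 in WT, so its groups too were apart. Nearest to Greb1 were Aloxe3 (r = 0.997), the keratin gene Krt6a (r = 0.995) and Rora (r = 0.992). Nearest to Pgr were Polr3gl (r = 0.994), Atr (r = 0.990) and Kif7 (r = 0.987), and all of these were also brightest in KO array 3. Nearest to Cited1 were Agpat2 (r = 0.989), Stx2 (r = 0.988) and the collagen gene Col6a1 (r = 0.981). Nearest to Esr1 were Wipf2 (r = 0.994), Edn1 and C1qtnf2 (both r = 0.986), and nearest to Wnt4 were Clasrp (r = 0.993), Amn1 (r = 0.987) and Abhd18 (r = 0.984). Foxa1 and Prom1 were not among each other's nearest 3.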

How the data were processed

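The deposited table holds linear signal intensities of 45101 probe sets on 6 one-colour arrays, made by the authors with tools that the submitters' processing notes list as MAS5 and affy, without versions. All arrays had been scaled to 1 level, a 2% trimmed mean of 150. Precision is limited by the number of arrays. Genes were named through the platform annotation: 34945 had 1 gene, 932 several and 9160 were not listed, and 64 control probe sets were left out. No genome build is named for the array data in the sources used here, and the promoter windows came from GRCm38.p6.

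In R 4.3.3, limma 3.58.1 fitted log2(signal + 16) of 3 KO and 3 WT arrays with no block (lmFit, then eBayes with its trend option), with Benjamini-Hochberg adjustment over 27024 probe sets and a threshold of 0.05. The fit was tested on simulated data. Their values were drawn independently, without an RNA quality gradient or a correlation by replicate number, so they do not show how the fit behaves under either. Arrays of a group correlated at 0.832 to 0.952 and arrays of different groups at 0.745 to 0.928, and at most 0.619% of values were identical between any pair.

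Titles in both groups carry replicate numbers 1 to 3. Deviations from the group means correlated at 0.391, 0.274 and 0.252 for numbers 1, 2 and 3, each over the limit of 0.1, and at most at 0.209 between different numbers, so the numbers were also used as a block. The highest value between different numbers was over that limit too. These correlations therefore do not show that the animals were paired, and the labels do not say so. Alternatives were another pseudocount, filter, scaling, covariate or set of arrays, and 1 probe set per gene. The members and lists were chosen with earlier results of these data known. The text names all members, Elf5, the pathway gene with the smallest p in each list and the 3 genes most like each member, unless it says otherwise.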

Additional observations from a re-analysis of the deposited data

How the results depend on the processing

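There were 18 planned and 8 added alternatives (the added ones, all with 1 probe set per gene, were chosen after seeing the data). Those that gave a value, 26 for most probe sets, 25 for Greb1 1445324_s_at and 17 for Esr1 1435663_at and Wnt4 1441687_at, left the direction of Foxa1 (2.18 to 2.82), Prom1 (2.32 to 4.47), Cited1 (1.21 to 2.87), Greb1 1445324_s_at (-1.29 to -0.78), Esr1 1460591_at (0.16 to 0.70) and both Wnt4 probe sets (0.43 to 1.51, and 0.21 to 1.16) as reported. Esr1 1435663_at reversed to 0.50 with the Gapdh ratio as a covariate, 0.42 in the arrays with a ratio under 2 and 0.23 without KO array 3 (-0.77 to 0.23 when 1 array was left out). Pgr 1439527_at reversed to -0.025 with the covariate and to -0.36 in the arrays with a ratio under 2, with every probe set or with 1 probe set per gene. The cause was not tested.

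The number of calls differed between settings. Limma called 119 genes with 1 probe set per gene (2 of them among the genes described), against 0 with every probe set. That setting changes the features, the filter and the estimate of the spread together, and which of these moved the count was not tested. A stricter filter alone, at the 60th percentile, left 18017 probe sets and 0 calls. Leaving out 1 array gave 0 to 720 calls with every probe set and 0 to 1214 with 1 probe set per gene (1, 10 and 1 without KO array 2, WT array 1 and WT array 3), and 0 to 3 among the genes described in both. The highest counts came without KO array 1, where the KO arrays left had Gapdh ratios of 3.89 and 13.6. The replicate block gave 0 calls with every probe set and 1310 of 10917 with 1 probe set per gene. Of these calls, 3 were genes described here (Foxa1, Prom1 and Cited1), and the block changed no other call among the genes described. Centring on the array median moved the median difference of all probe sets by 0.22 and centring on luminal markers by -0.30. All 9 tested probe sets kept their sign under both and under quantile normalization. Dim signals limit Tnfsf11, and other probe sets under the filter.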
